A study of Mus musculus with 4 samples.

Results

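Sox9, Sox5 and Sox6 are described here through the open chromatin around them in the mesenchyme of the mouse incisor. The set comprised 173 open regions of 121574 in all, 68 of Sox9, 53 of Sox5 and 52 of Sox6. A region was taken when its midpoint lay nearest to a transcription start site (TSS) of one of these genes among all protein-coding genes, or when it overlapped 1 kb either side of such a TSS, which is called its promoter below. The assay was ATAC-seq, which reads out open chromatin as the places where a transposase can insert sequencing adapters. There was 1 group, made of incisor mesenchyme cells of wild-type C57BL/6 mice that were untreated and 4 weeks old. Its 4 samples are lanes 1 to 4, whose values stand under 1 shared name, so 1 library is described without replicate error, contrast or test. The sources used here do not give how many animals it holds.

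SOX9 is a transcription factor of the SoxE group that bends DNA through its HMG domain and is required for cartilage to form. SOX5 and SOX6 belong to the SoxD group, lack a transactivation domain of their own, and act as pairs beside SOX9 on cartilage genes such as Col2a1 and Acan. Together the 3 genes are called the SOX trio. Sox9 is also active in the cranial neural crest, from which the dental mesenchyme descends. It is a short gene in a long stretch without other protein-coding genes, and in human patients chromosome breaks far from the gene cause campomelic dysplasia. Sox5 and Sox6 are long genes with several start sites and large introns.

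The sequences of 7 windows follow, chosen because the results below turn on them: the stretch before the Sox9 TSS, a region with many reads away from the promoters of each gene, the largest region of the far upstream desert of Sox9, and the only paired SOX match. All are on the plus strand of GRCm38 (mm10), 5′ to 3′, and each is centred on its region except the first. Capitals mark exact matches, on either strand, to a motif searched for: the SOX cores ACAAAG and ACAAT, the RUNX core TGTGGTT, the AP-1 site TGANTCA, the TEAD site GGAATG, the homeodomain core TAATTA, the E-box CAGCTG, the TCF/LEF site CTTTGAT, a GLI site, an NFI site, a CTCF core and the paired SOX site, in which ACAAT and ATTGT stand 4 bases apart. A match is a run of letters, not a measured binding site.
Sox9, before the TSS, chr11:112781924-112782209: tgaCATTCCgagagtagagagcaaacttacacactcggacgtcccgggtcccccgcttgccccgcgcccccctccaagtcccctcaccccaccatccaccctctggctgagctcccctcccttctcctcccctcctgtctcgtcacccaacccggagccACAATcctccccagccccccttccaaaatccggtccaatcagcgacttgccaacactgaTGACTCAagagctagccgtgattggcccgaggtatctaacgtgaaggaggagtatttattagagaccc
Sox9, 390.7 kb downstream, chr11:113172770-113173069: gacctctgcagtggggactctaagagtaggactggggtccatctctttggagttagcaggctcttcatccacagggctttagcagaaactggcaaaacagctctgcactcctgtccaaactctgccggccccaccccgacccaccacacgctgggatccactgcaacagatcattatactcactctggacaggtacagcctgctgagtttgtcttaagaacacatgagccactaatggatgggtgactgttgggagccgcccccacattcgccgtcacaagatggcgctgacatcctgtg
Sox9, 1335.9 kb upstream, chr11:111446184-111446483: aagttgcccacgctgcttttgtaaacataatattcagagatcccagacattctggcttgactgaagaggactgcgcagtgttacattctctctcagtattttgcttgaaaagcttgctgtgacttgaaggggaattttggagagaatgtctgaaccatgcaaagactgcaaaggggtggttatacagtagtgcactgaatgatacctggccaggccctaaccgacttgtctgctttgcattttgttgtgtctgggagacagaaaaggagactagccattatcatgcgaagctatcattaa
Sox5, intron 3, chr6:144043266-144043565: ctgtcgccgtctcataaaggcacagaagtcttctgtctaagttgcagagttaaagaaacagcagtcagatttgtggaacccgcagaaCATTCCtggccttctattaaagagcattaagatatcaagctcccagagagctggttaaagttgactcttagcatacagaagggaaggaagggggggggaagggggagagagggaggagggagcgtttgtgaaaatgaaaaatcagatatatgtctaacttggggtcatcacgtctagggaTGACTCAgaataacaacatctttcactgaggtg
Sox5, intron 3, paired SOX match, chr6:144097968-144098267: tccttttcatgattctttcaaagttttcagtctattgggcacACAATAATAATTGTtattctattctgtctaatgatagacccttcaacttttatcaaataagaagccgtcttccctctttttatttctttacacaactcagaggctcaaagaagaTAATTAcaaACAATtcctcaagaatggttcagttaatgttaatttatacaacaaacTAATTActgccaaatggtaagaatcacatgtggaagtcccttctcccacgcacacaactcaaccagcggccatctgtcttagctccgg
Sox6, downstream of the gene, chr7:115453327-115453626: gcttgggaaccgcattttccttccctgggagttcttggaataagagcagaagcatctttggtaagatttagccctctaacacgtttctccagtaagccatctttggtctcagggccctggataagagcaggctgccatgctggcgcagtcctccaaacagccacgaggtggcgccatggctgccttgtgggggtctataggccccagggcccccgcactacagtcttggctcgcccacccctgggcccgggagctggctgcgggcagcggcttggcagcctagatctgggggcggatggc
Sox6, before the gene, chr7:116040145-116040444: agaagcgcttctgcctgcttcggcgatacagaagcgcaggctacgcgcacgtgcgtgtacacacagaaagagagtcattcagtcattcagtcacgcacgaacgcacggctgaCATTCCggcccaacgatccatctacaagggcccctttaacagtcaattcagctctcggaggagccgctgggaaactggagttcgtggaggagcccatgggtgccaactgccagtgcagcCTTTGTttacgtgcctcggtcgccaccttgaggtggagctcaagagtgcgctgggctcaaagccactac
The stretch before the Sox9 TSS held 1 match each to ACAAT, AP-1 and TEAD. The windows 390.7 kb downstream and 1335.9 kb upstream of Sox9 held no exact match, and neither did the downstream window of Sox6. The region 1335.9 kb upstream lies in the Sox9 desert but is nearest to Kcnj2, so it is not among the Sox9 regions.

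The whole library held 2297892 reads in regions. A region had a median of 7 reads, with quartiles of 3 and 16, and a median width of 261 bp, and 7101 regions (5.84%) had 0 reads. At this depth a typical single region is known only loosely: for 10 reads in a region the exact 95% Poisson interval was 4.80 to 18.4. Intervals given with reads are of this kind, those given with shares are exact 95% binomial intervals, and both cover counting error only. The sources used here do not say if mates of a pair were counted singly, and if they were, the intervals are too narrow. In bulk cells, a region open in few cells and one weakly open in many cannot be told apart. Of 9 marker genes of dental mesenchyme, 8 had a promoter region, against 64.6% of all protein-coding genes, and 8 had more reads than the median gene, against 49.8% of genes with a region. Of 22 markers of other cells, 12 (54.5%) had a promoter region, below the share of all genes: 5 of 5 of dental epithelium, 2 of 4 of chondrocytes, 2 of 3 of odontoblasts, 2 of 3 of endothelium, 1 of 3 of glia and 0 of 4 of leukocytes. Of the 21 with any region, 10 (47.6%) had more reads than the median gene: 3 of 5, 1 of 4, 2 of 3, 2 of 3, 1 of 3 and 1 of 3 in the same order of cell types. Their part in the reads at the SOX genes was not tested.

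All 3 genes were accessible mainly away from their promoters. Sox9 had 846 reads (790 to 905), of which 753 (89.0%, interval 86.7% to 91.0%) lay outside its promoter. Sox5 had 436 reads (396 to 479), with 400 (91.7%, 88.8% to 94.2%) outside. Sox6 had 430 reads (390 to 473), with 379 (88.1%, 84.7% to 91.0%) outside. Over all regions, by contrast, 51.2% of the reads lay within 1 kb of a protein-coding TSS. Among the 16826 genes with a region, the reads outside promoters placed Sox9 at the 99.5th percentile, Sox5 at the 97.7th and Sox6 at the 97.3rd, where the median gene had 21. Promoter reads placed them at the 62.8th, 29.4th and 40.1st percentile of the 14115 genes with a promoter region, whose median was 67 reads. The 3 promoters were thus near or below the middle of the range while the summed reads elsewhere were near its top. These ranks are of sums over unlike lengths of sequence. Ranks per length of nearest sequence were not computed, so they do not show that the sequence around these genes was unusually open.

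The sums grow with the sequence that lies nearest to each gene, which spanned 1250 kb for Sox9, 1072 kb for Sox5 and 765 kb for Sox6. Per 100 kb of that sequence, Sox9 had 67.7 reads, Sox6 56.2 and Sox5 40.7. Per kilobase of open region, Sox9 had 41.4 reads, Sox6 28.7 and Sox5 28.0, so Sox6 and Sox5 were close on that scale. The typical region was small at all 3 genes, with a median of 5.5 reads at Sox9 and 5 at both Sox5 and Sox6. At least 10 reads were found in 25 of 68 Sox9 regions (36.8%), 19 of 53 Sox5 regions (35.8%) and 14 of 52 Sox6 regions (26.9%), against 39.0% of all regions. No read was counted in 5 Sox9 regions, 7 Sox5 regions and 1 Sox6 region. The largest region held 78 reads at Sox9, 49 at Sox6 and 35 at Sox5.

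Position, which depends on the annotated gene structure, set the 3 genes apart from each other. None of the 68 Sox9 regions had its midpoint in an intron of a protein-coding gene. The annotation leaves almost no intron there: Sox9 spans 5.54 kb, and the rest of the sequence nearest to it lies between protein-coding genes. Of the 68 regions, 41 (60.3%) were intergenic and 23 (33.8%) lay in noncoding genes. Introns held 26 of 53 Sox5 regions (49.1%, 35.1% to 63.2%) and 59.9% of its reads, and 30 of 52 Sox6 regions (57.7%, 43.2% to 71.3%) and 44.4% of its reads. Over all regions the share in introns was 35.3%, with 20.1% of the reads. These shares do not allow for length: introns made up 559 kb of the 765 kb nearest to Sox6. For Sox5 they made up 374 kb of 1072 kb. Of the 173 regions, 12 (6.94%) were promoters, against 20.6% of all regions, and 77 (44.5%) were intergenic, against 35.1%. Intergenic regions took 47.5% of the reads of the 3 genes and 21.9% of those of all regions.

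**Figure D1:**
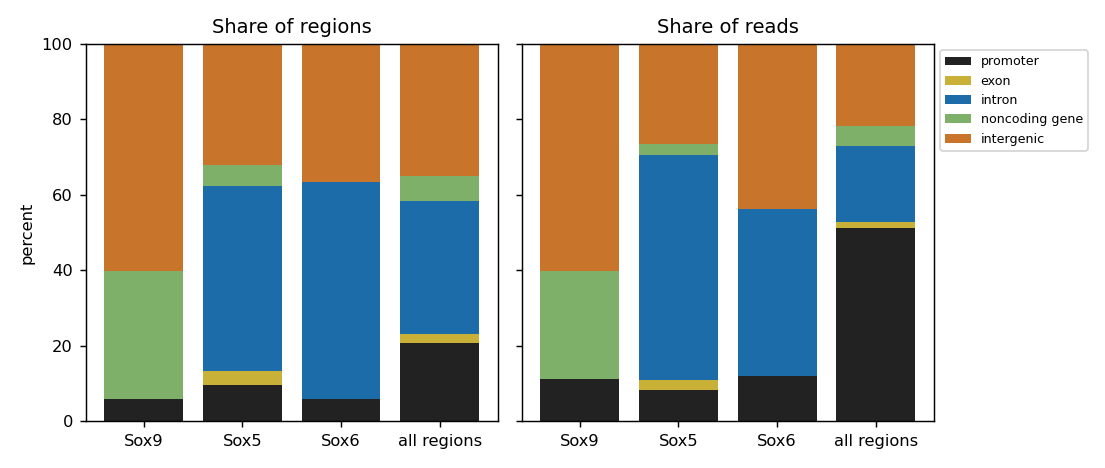
Share of regions (left) and of their reads (right), in percent, by position class for Sox9, Sox5, Sox6 and all regions, each bar adding up to 100. Introns are missing from the Sox9 bars and hold 59.9% of Sox5 reads and 44.4% of Sox6 reads, while promoters hold 51.2% of the reads of all regions.

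The promoters differed in how their reads were spread. Sox9 on chromosome 11 has a single annotated TSS at 112782224, and 4 regions within 1 kb of it held 93 reads (75.1 to 114). The region across the TSS, 112782016 to 112782571, held 78 of these reads (61.7 to 97.3), more than any other Sox9 region. The other 3 promoter regions held 5, 4 and 6 reads. The 300 bp around the centre of the main region held 19 CpG pairs, near the median of 21 over all promoter regions.

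Sox5 on chromosome 6, read from the minus strand, has 5 annotated TSSs, and 4 of them lie within 144209452 to 144209568 at the start of the gene. This group held all 36 promoter reads of Sox5 (25.2 to 49.8), in 5 regions of 4, 10, 2, 2 and 18 reads. The largest, 144210122 to 144210819, lay 0.90 kb upstream of the outermost TSS, and the region over the TSSs, 144209389 to 144209684, held 10 reads. No region was listed within 1 kb of the internal TSS at 143947106. The 5 windows held 5 to 9 CpG pairs each, all below the median of 21. The fuller annotation of RefSeq adds Sox5 starts more than 500 kb upstream, up to 144782287, where 4 regions nearest to Bcat1 held 12 reads in all.

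Sox6 on chromosome 7, also on the minus strand, has 6 annotated TSSs, and 1 of them took most of the promoter reads. The region 116031478 to 116032211 before the TSS at 116031047 held 43 reads (31.1 to 57.9) and 25 CpG pairs. The outermost TSS at 116038744 had 5 reads and the internal TSS at 115824710 had 3. No region was listed at the TSSs at 115846105, 115846140 and 115995086. A further region with 33 reads (22.7 to 46.3), 116040118 to 116040470, began just beyond 1 kb from the outermost TSS, and its window is printed above. It held 21 CpG pairs and abutted the region with 5 reads. This region lies before the gene only in the annotation used here. The most upstream RefSeq start of Sox6 is 116040776, so in RefSeq the region lies inside the gene, within 1 kb of that start. With promoters drawn 2 kb wide on either side, Sox6 had 95 promoter reads instead of 51, and with the 23 RefSeq starts it had 107 (87.7 to 129). The promoter sum of Sox6 therefore depended on which starts were counted.

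The gene desert around Sox9 was unevenly open. Upstream, no protein-coding gene lies between the end of Kcnj2, which encodes a potassium channel, and Sox9, a gap of 1705 kb (111076822 to 112782223). It held 26 regions outside promoters with 238 reads (209 to 270), that is 140 reads per Mb (122 to 159). Downstream, the gap to Slc39a11, a member of a zinc transporter family, is 457 kb long (112787761 to 113244852). It held 57 regions and 716 reads (665 to 770), or 1566 reads per Mb (1454 to 1685), which is 11.2 times the upstream density. These counts include 7 upstream regions (78 reads) nearest to Kcnj2 and 12 downstream regions (123 reads) nearest to Slc39a11.

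Among 735 gaps of at least 500 kb between protein-coding genes, the median was 140 reads per Mb, with quartiles of 22.0 and 361. The upstream gap lay at the 49.9th percentile of them (47.3 to 52.0 over its counting interval). The downstream gap, itself just short of 500 kb, would lie at the 99.2nd percentile (98.9 to 99.5) by reads and at the 99.9th by its 125 regions per Mb. An uneven pair of gaps was not rare. Of 259 genes with gaps of at least 400 kb on both sides, 68 had no reads in either gap, and among the other 191 Sox9 ranked 42nd in the absolute log2 ratio of the 2 densities, with 3.48 against a median of 1.43. Of the 74 such genes with at least 500 reads in both gaps together, it ranked 13th.

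**Figure D2:**
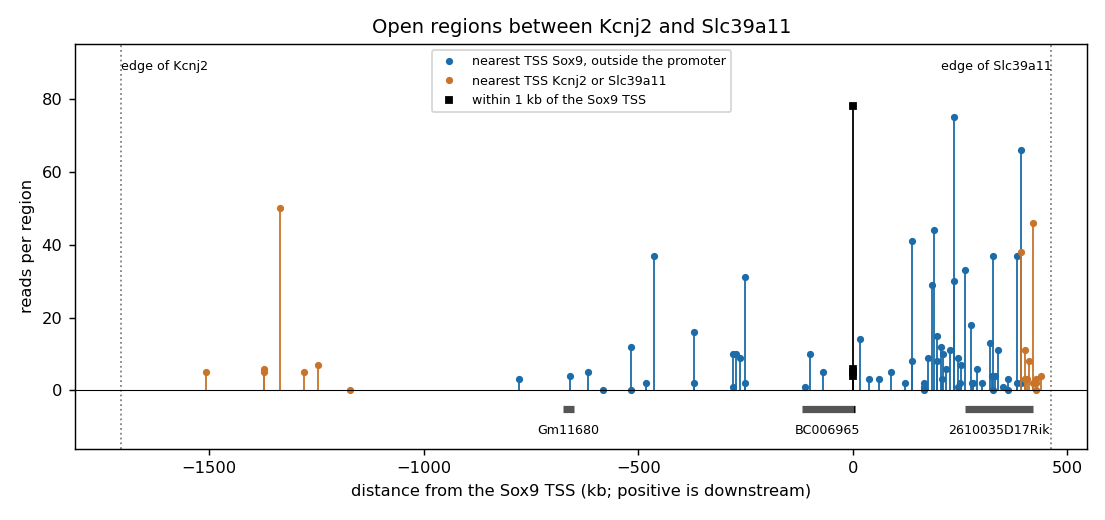
Reads per open region against distance from the Sox9 TSS in kb, from the edge of Kcnj2 to the edge of Slc39a11, with the largest noncoding genes of the gaps as grey bars and Sox9 as a black bar. The densest stretch runs from about 100 to 400 kb downstream, and no region lies from 1172 to 779 kb upstream.

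In steps of 100 kb downstream of the Sox9 TSS, promoters left out, the reads were 25, 159, 227, 223 and 82, in 4, 11, 16, 16 and 10 regions, the last step ending at Slc39a11. The first 100 kb upstream held 1 region with 5 reads. The steps beside the gene thus held fewer reads on both sides than each step between 100 and 400 kb downstream. Upstream, the fullest step lay from 200 to 300 kb away, with 63 reads in 6 regions. Next came the step from 1300 to 1400 kb, with 61 reads, of which 50 were in the single region printed above. The longest stretch without a listed region was 392 kb.

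The largest regions of the desert lay mostly downstream. A region 390.7 kb downstream (113172556 to 113173282) held 66 (51.0 to 84.0). Downstream regions at 188.0 and 137.7 kb held 44 (32.0 to 59.1) and 41 (29.4 to 55.6). Those at 325.9 and 383.1 kb held 37 each (26.1 to 51.0). Closer to Slc39a11, a region at 392.0 kb held 38 and one at 419.5 kb held 46, the second across the start of the noncoding gene 2610035D17Rik. Upstream, 50 reads (37.1 to 65.9) lay 1335.9 kb away, in a region nearest to Kcnj2, and 37 (26.1 to 51.0) lay 464.0 kb away. The farthest region assigned to Sox9 with at least 10 reads lay 517.9 kb upstream and held 12.

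The downstream regions were grouped. When regions outside promoters were joined across gaps of up to 10 kb, the library fell into 43184 clusters. Only 11932 of these held at least 3 regions, and the ranks by reads are among all 43184. The largest at Sox9 spanned 96.2 kb (112946775 to 113042945), with 20 regions and 307 reads (274 to 343), and ranked 138th by reads, in the top 0.320%. The next spanned 45.0 kb (113165045 to 113210086), with 15 regions and 226 reads (197 to 257), and ranked 274th. Only its first part was nearest to Sox9: its regions from 113174050 onward, which are most of them, were nearest to Slc39a11. Together they held 35 of the 57 downstream regions (61.4%) and 533 of the 716 reads (74.4%). With joining across up to 5 kb, the largest Sox9 cluster had 106 reads and lay in the top 1.49%. The largest cluster of Sox5 had 67 reads in 4 regions and ranked 3508th, and that of Sox6 had 58 reads in 6 regions and ranked 4392nd.

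Noncoding genes covered part of this sequence. The 158 kb noncoding gene 2610035D17Rik (113043895 to 113201838) held 26 regions with 324 reads, so the second cluster lay mostly within it while the first lay before it. BC006965, which ends just before Sox9, spans 118 kb upstream and held 3 regions with 16 reads, promoter regions of Sox9 left out. Sequence composition differed between the sides: the median GC content of the 300 bp windows was 53.0% downstream and 44.3% upstream, against 48.3% over all regions outside promoters.

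Sox5 had 286 of its 436 reads inside the gene and Sox6 had 237 of its 430, and neither had introns at the extreme of long genes. Sox5 introns held 26 regions and 261 reads (230 to 295), or 69.8 reads per 100 kb of intron (61.6 to 78.8). Sox6 introns held 30 regions and 191 reads (165 to 220), or 34.2 per 100 kb (29.5 to 39.4). The intervals of these densities did not overlap. Among 963 protein-coding genes spanning at least 200 kb, Sox5 lay at the 74.6th percentile (71.3 to 78.7) and Sox6 at the 48.4th (44.0 to 53.9), where the median was 35.9 and the quartiles were 12.9 and 70.2.

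**Figure D3:**
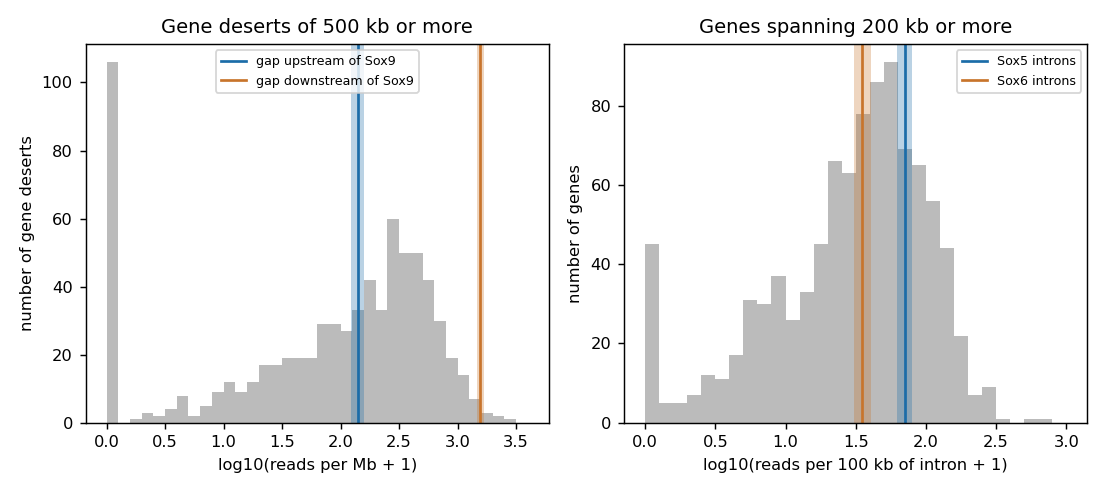
Left: 735 gene deserts by log10(reads per Mb + 1), with lines for the gaps upstream and downstream of Sox9. Right: 963 long genes by log10(reads per 100 kb of intron + 1), with lines for Sox5 and Sox6; shaded bands are 95% counting intervals, and the downstream gap of Sox9 stands at the upper end while the other 3 lines stand within the bulk.

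Within Sox5, whose longest transcript has 14 exons, the reads gathered in the first part of the gene. Intron 3, 75.1 kb long, held 9 intronic regions with 118 reads, which is 157 reads per 100 kb. This density was not particular to it: shorter introns with 1 or 2 regions had 164 (intron 4), 145 (intron 9) and 156 (intron 12). Intron 1 held 8 regions with 55 reads, 1 promoter region included, whereas intron 8, 67.2 kb long, held 2 regions with 5 reads. The region with the most reads, 144043154 to 144043676 in intron 3, had 35 (24.4 to 48.7) and lay 166.2 kb into the gene. Its window held 1 AP-1 and 1 TEAD match. Others in the gene held 28 reads in intron 1 (144166155 to 144166612), 22 in intron 3 (144074843 to 144075182) and 20 in intron 6 (143978061 to 143978365). Upstream of the gene, 16 regions held 125 reads, promoter regions included, among them 28 reads at 69.1 kb and 26 at 55 kb before the start. RefSeq has Sox5 starts up to 144782287, beyond all 16 regions. What is counted here as upstream, intergenic or intronic for Sox5 therefore depends on the annotation. Downstream, 7 regions held 25 reads, 14 of them in 143698186 to 143698492, which of the Sox5 regions with at least 10 reads is the farthest from a Sox5 TSS.

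Within Sox6, with 16 exons in its longest transcript, the intronic reads were spread more thinly. Intron 2 is 142 kb long and held 5 regions with 21 reads, the promoter region with 3 reads included, or 14.8 per 100 kb, while intron 1 held 6 regions with 68 reads, 43 of them in the promoter region of the inner TSS. The largest region inside the gene away from promoters, 115784290 to 115784764 in intron 3, held 26 reads. Regions in introns 5 and 7 held 14 each. The largest Sox6 region lay outside the gene: 115453156 to 115453797, beyond its last exon, held 49 reads (36.3 to 64.8), and a region at 115411507 to 115411785 on the same side held 30 (20.2 to 42.8). In all, 17 regions downstream of Sox6 held 151 reads, against 25 reads in 7 regions downstream of Sox5. The farthest Sox6 region with at least 10 reads lay 496.6 kb from its nearest Sox6 TSS.

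**Figure D4:**
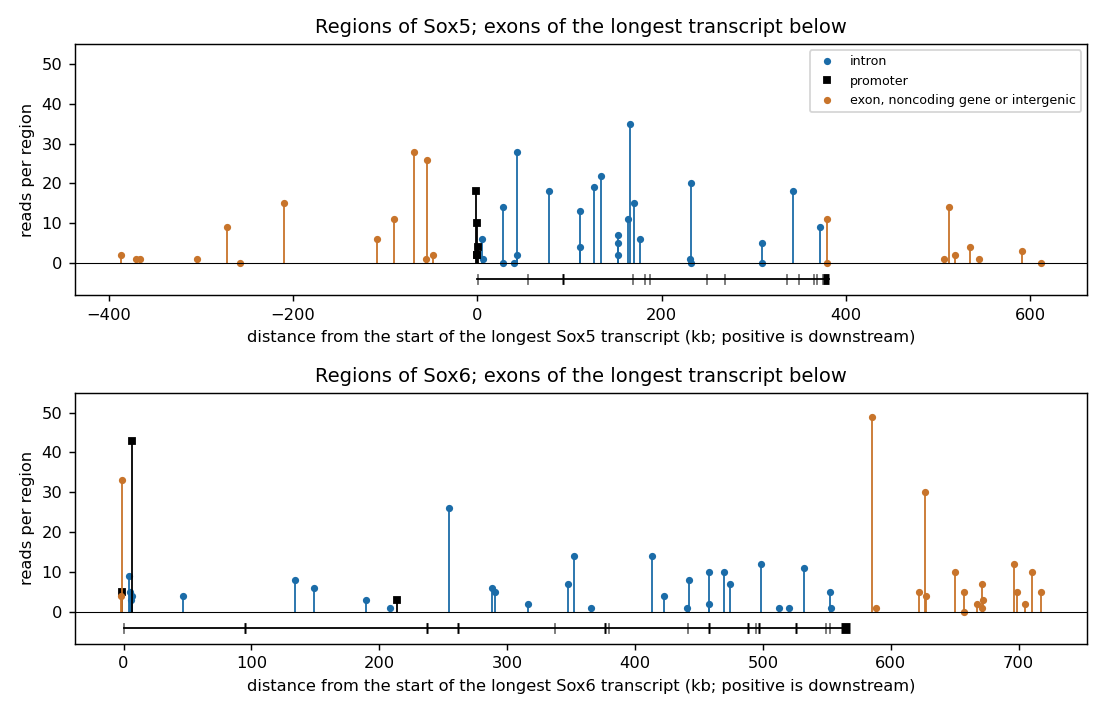
Reads per open region against distance in kb from the start of the longest transcript of Sox5 (top) and Sox6 (bottom), with exons as black blocks below. Sox5 reads concentrate from about 70 kb before to 180 kb into the gene, and the largest Sox6 regions lie at its start and beyond its end.

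Motif matches were counted in 300 bp windows around 161 member regions outside promoters and around all 96530 such regions. Windows of abutting regions overlap, so the binomial intervals take them as more independent than they are. The SOX core ACAAT was in 79 member windows (49.1%, interval 41.1% to 57.1%), against 39.4% of all windows, and it was in 32 of 64 Sox9, 23 of 48 Sox5 and 24 of 49 Sox6 windows. The other core, ACAAAG, was in 35 (21.7%, 15.6% to 28.9%), against 25.6%. The paired SOX site stood in 1 member window, in intron 3 of Sox5, and in 22 of all 96530. That window belongs to a region with 4 reads, 144098030 to 144098205, but the match itself lay just outside this region. Windows of 300 bp are wider than many regions, so a match need not lie in open sequence. A match to the paired site also counts as ACAAT.

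Among the other motifs, the homeodomain core stood in 36 member windows (22.4%, 16.2% to 29.6%), against 13.9% of all windows. The E-box stood in 20 (12.4%, 7.76% to 18.5%), against 21.2%. AP-1 was in 19 (11.8%) against 11.1%, and TCF/LEF in 9 (5.59%) against 4.55%. TEAD was in 32 (19.9%) against 19.6%, but in regions with at least 10 reads it was in 16 of 54 member windows (29.6%, 18.0% to 43.6%), against 19.9% of all such windows. RUNX was in 17 (10.6%) against 9.98%, but these were 1 of 64 Sox9 windows, 7 of 48 Sox5 windows and 9 of 49 Sox6 windows. The CTCF core, bound by the insulator protein, was in none of the 161 windows (up to 2.27%), against 4.30%. In the gaps around Sox9 as a whole it was in 1 of 26 upstream windows, at a region nearest to Kcnj2, and 0 of 57 downstream windows. Only exact matches were counted, so sequences that differ from the CTCF core in 1 letter are left out. The printed window downstream of Sox6 holds such a sequence. GLI and NFI sites were in no member window and in 0.315% and 0.0590% of all windows. The median GC content was 47.7% in member windows and 48.3% in all, and the part of base composition in these shares was not tested.

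The cartilage genes on which the trio is known to act were not uniformly accessible. Of 24 such genes, 23 had a region nearest to them, against 77.0% of all protein-coding genes, and 18 (75.0%) had a promoter region, against 64.6%. Of the 23, 10 (43.5%) had more reads than the median gene, against 49.8% of all genes with a region, and their median was 66 reads against 85. The most reads were at Col27a1, a fibrillar collagen, with 333 (298 to 371), Col11a1, a minor collagen of cartilage fibrils, with 329 (294 to 367), the transcription factor Runx3 with 328 (293 to 365) and the link protein gene Hapln1 with 286 (254 to 321). The fewest were at Snorc, with no region, Ucma with 7, Epyc with 13 and Scrg1 with 35. Col2a1, the main cartilage collagen, had 63 reads, 4 of them at its promoter. Acan, the cartilage proteoglycan, had 105 and 15. These sums are not per length.

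The closest relatives of the trio had smaller sums than its members, over unlike lengths of sequence. Sox13, the remaining SoxD gene, had 171 reads (146 to 199) with 40 at its promoter. Of the SoxE genes, Sox10, a glial and neural crest factor, had 76 reads (59.9 to 95.1) and no promoter region, and Sox8 had 57 (43.2 to 73.9) with 27 at its promoter. Beside Sox9, Kcnj2 had 223 reads with 116 at its promoter and Slc39a11 had 522 with 65. Next beyond them, Kcnj16 had 48 and Sstr2 had 40. Beside Sox5, the ethanolamine kinase gene Etnk1 had 329 reads and Bcat1, an aminotransferase gene, had 167. Beside Sox6, Insc, whose product helps orient the mitotic spindle, had 603 and Gm4353 had 2.

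By promoter reads and reads elsewhere, on the scale of log10(reads + 1) in this 1 library, the genes nearest to Sox9 were Med13l (83 and 757 reads), Ubash3b (82 and 728) and Flrt3 (105 and 717). The nearest to Sox5, at 36 and 400, were Slc4a3 (37 and 407), Thbs2 (37 and 382) and Dio2 (34 and 386). The nearest to Sox6, at 51 and 379, were Lhx8 (51 and 382), Uaca (51 and 376) and Sema4d (51 and 373). Lhx8, a LIM homeobox factor, is itself known from tooth development. The likeness is of read sums over 21851 genes and says nothing of where the regions lie.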

How the data were processed

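ATAC-seq was run on 1 group, in paired ends on a NextSeq500. The labels' protocols name BWA-MEM with mm10 for alignment, MACS2 for peak calling and HOMER for motifs. Per the submitters' processing notes, STAR 2.6.1d and Partek were also used. The sources used here do not give the transposase shift, the handling of duplicates (which raise counts where kept) or the libraries on which regions were called.

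The authors deposited a table of CPM values per region. The smallest value, 0.0484, is worth 1 read; dividing by it gave whole numbers within 0.01 for all but 84 regions (99.9%), and subtracting 1 gave the reads. The authors also deposited a table of expected counts, which as held here covers 16382 regions on chromosomes 10 to 12, among them all Sox9 regions; the largest difference from the recovered reads was 0.0047. The count model the unit would allow was not run, as there is no contrast. Left unused was 1 further value column of the CPM table, which matches none of the samples. The design assumed a value for each lane, whereas the files give the 4 lanes as 1 value.

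TSSs are those of protein-coding transcripts in GENCODE vM21 basic on GRCm38 (mm10). Percentiles place a tie at its midpoint. Regions overlapping 1 kb either side of a TSS were classed as promoters. All others follow the region's midpoint, first exon, then intron, noncoding gene and intergenic. Sequences were read from the GRCm38 genome, and starts named as RefSeq from its RefSeq annotation. Python 3.11.15 with numpy 2.4.6, pandas 2.3.3, scipy 1.17.1 and matplotlib 3.10.9 was used, and scripts were tested on simulated data. The members, gene lists and motifs were chosen with earlier results of these data known. The regions named are those at promoters, the 6 others of each gene with the most reads, the farthest with at least 10 reads, and the 8 largest of the Sox9 desert; 1 region that this rule takes is not reported here. The genes named are the 4 highest and 4 lowest of the cartilage list, with Col2a1 and Acan added after their values were seen, the relatives, the neighbours and the 3 most alike. Intron totals and 100 kb steps were also chosen for printing after their values were seen. Alternatives were a minimum of 10 reads, other assignment rules, other starts, promoter widths, desert and gene lengths, joining distances and motif windows.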

Additional observations from a re-analysis of the deposited data

How the results depend on the processing

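Of 50 alternative values of the main results, 24 stayed within the counting interval, or within 1.5 times for numbers of regions. With regions of at least 10 reads alone, reads were 700 at Sox9, 346 at Sox5 and 284 at Sox6, in 25, 19 and 14 regions, by construction. The intron percentiles were then 78.8 for Sox5 and 40.8 for Sox6. With regions of the gene's own span and promoters alone, reads were 93, 308 and 242, in 4, 33 and 33 regions: the Sox9 sum rests on the desert. With the most upstream TSS alone, Sox6 had 368 reads, 5 of them at the promoter. Sox5 promoter reads were 18 with 500 bp on either side and 55 with RefSeq starts, and Sox6 promoter reads were 95 with 2 kb and 107 with RefSeq starts. Against deserts of at least 1 Mb, the Sox9 gaps lay at percentiles 59.2 (upstream) and 98.7 (downstream), and against deserts of at least 400 kb the downstream gap lay at 98.6. Sox6 introns lay at percentile 57.7 among genes of at least 400 kb, where Sox5 is too short to have a value. The largest Sox9 cluster was in the top 1.49% with joining within 5 kb and the top 0.683% within 20 kb. The causes were not tested. Of 24 alternative motif shares, 19 stayed within their intervals. The exceptions were TEAD (11.2% with 200 bp windows, against 13.7% of all windows, and 29.6% with at least 10 reads), ACAAT (37.9% with 200 bp windows, against 29.1%) and the paired SOX site (0% in both).

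RefSeq starts and the 400 kb minimum were chosen after seeing the data. Leaving out each lane was not run, since the lanes share 1 value. No paired analysis was possible because the files hold 1 pooled value for 1 group. Depth limits single regions, since the median of 7 reads has a counting interval of 2.81 to 14.4, and the spread between animals is unknown.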
